A study of Mus musculus with 2 samples.

Results

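Carbonic anhydrases interconvert carbon dioxide and bicarbonate, and help set how fast acid and carbon dioxide leave a working muscle. The 8 genes described here, Car2, Car3, Car4, Car5b, Car8, Car9, Car13 and Car14, were chosen by symbol from the 55536 genes in the deposited tables, as the cytosolic, mitochondrial and membrane members of the family. All 8 were found, each under 1 gene identifier, and all encode protein. Steady-state RNA was measured in gastrocnemius, a calf muscle mostly of fast fibres. The mice were males of the F1 hybrid B6CASTF1/J (B6 by CAST) at 2 months of age, with no treatment or engineered allele in the labels. The series is 1 group of 2 total RNA libraries, called replicates 1 and 2, from 300 ng of input RNA plus ERCC spike-ins. Each has its own tissue sample in the labels, under a shared donor entry, and separate animals are not stated, so the spread between the libraries may be partly technical. With 1 group there is no comparison of conditions, and the questions are how much of each enzyme's RNA the muscle held and how far the libraries differed.

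As background, the mammalian enzymes share a fold in which histidines hold a zinc ion, and the zinc carries the hydroxide that attacks carbon dioxide. They differ in place and in speed. Car2 is the fast cytosolic form, Car3 a slow cytosolic form known as one of the abundant soluble proteins of skeletal muscle, slow fibres in particular, and Car13 a further cytosolic form. Car5b works in the mitochondrial matrix. Car4 is tied to the outer face of the plasma membrane by a lipid anchor and is known from capillary endothelium and from the muscle surface. Car9 and Car14 span the membrane with the catalytic domain outside. Car8 is cytosolic and lacks the hydration activity, and it is known as a partner of the inositol trisphosphate receptor in cerebellar Purkinje cells.

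The zinc site that the catalytic members share can be read from the coding sequence. The stretches shown here, for 7 of the 8 members, code for the neighbourhood of the first and second zinc-binding positions, in the lowest-numbered transcript of each gene in GENCODE M21, which is on the mm10 assembly. Capitals mark the codons at those positions, found by aligning each coding sequence with that of Car2. Each stretch holds 54 bases, or 18 codons, and lies within 1 coding exon.
Car3: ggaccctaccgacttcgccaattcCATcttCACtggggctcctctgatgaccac
Car2: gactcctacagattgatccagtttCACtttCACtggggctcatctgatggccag
Car13: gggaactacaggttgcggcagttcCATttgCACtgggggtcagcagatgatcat
Car5b: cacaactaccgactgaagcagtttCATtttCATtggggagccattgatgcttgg
Car14: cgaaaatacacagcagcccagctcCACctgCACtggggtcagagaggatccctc
Car4: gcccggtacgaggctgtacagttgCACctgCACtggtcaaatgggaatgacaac
Car9: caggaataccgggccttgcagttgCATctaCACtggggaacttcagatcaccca
In all 7 genes both marked codons are histidine codons, written CAC or CAT. The third zinc-binding position, further along the coding sequence, is a histidine codon in these 7 as well. The stretches of Car3, Car2 and Car13 lie on the plus strand of chromosome 3, at chr3:14866826-14866879, chr3:14895045-14895098 and chr3:14650682-14650735. That of Car14 is on the minus strand at chr3:95900288-95900341, and that of Car5b on the minus strand at chrX:163991393-163991446. Car4 has it on the plus strand at chr11:84964143-84964196, and Car9 on the plus strand at chr4:43508940-43508993.

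Members differed enough for their reads to be assigned to 1 gene each. Over the 28 pairs of members, identity of the aligned coding bases ran from 42.9% for Car4 and Car13 to 63.5% for Car2 and Car3, with a median of 47.2%. The longest identical run between transcripts of 2 members was 30 bases, between Car2 and Car13. The deposited posterior standard deviation of the gene count was 0 for all 8 members in both libraries, so no read of theirs was shared with another gene in those tables. Each member therefore had a whole number of reads.

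Car3 held nearly all the carbonic anhydrase RNA. Values are from the gene tables of expected counts in the layout of RSEM, called the first tables, unless the second tables, in the layout of kallisto, are named. Its level was 439.9 TPM (each transcript's part of all transcripts, a level per length) in replicate 1 and 530.3 TPM in replicate 2, a mean of 485 ± 63.9 (SD, n = 2). It came from 23801 and 28695 expected counts, and Car3 ranked 85 among 22028 protein-coding genes by mean TPM. The TPM of Car3 lay above its deposited interval in both libraries, 426 to 437 in replicate 1 and 514 to 527 in replicate 2. Both libraries put Car3 far above every other member. It made up 90.7% and 91.7% of the summed TPM of the 8 members, a mean of 91.2 ± 0.725%. The 8 members together came to 485 and 578 TPM in replicates 1 and 2, with a mean of 531 ± 65.8, and without Car3 to 45.0 and 47.7 TPM. Levels in bulk tissue do not separate fewer cells of a type from less RNA per cell, here or for any member that follows.

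Car14 came next and led the membrane forms. It stood at 31.8 and 34.0 TPM in replicates 1 and 2, a mean of 32.9 ± 1.52, from 1483 and 1620 reads, with rank 1450 among protein-coding genes. The libraries lay close together and above all members other than Car3. The TPM of Car3 was 13.8 times that of Car14 in replicate 1 and 15.6 times in replicate 2. The last exon stretch of Car14 overlaps that of Aph1a, a gene for a subunit of gamma-secretase on the opposite strand, by 445 bases (chr3:95897768-95898212), and 1 of the 4 Car14 transcripts reaches it. The sources used here do not say if counting used strand. No Car14 read was shared with another gene, Aph1a included. The count of Aph1a had a posterior standard deviation of 26.2 in replicate 1 and 12.9 in replicate 2, so its shared reads were not shared with Car14.

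Car2, the fast cytosolic enzyme that is also abundant in red cells, was low. It was at 5.01 and 6.69 TPM in replicates 1 and 2, from 221 and 313 reads, with a mean of 5.85 ± 1.19. Car3 exceeded it 87.8-fold in replicate 1 and 79.3-fold in replicate 2 by TPM. Car4, the anchored membrane form, was at 5.30 and 4.88 TPM, from 198 and 179 reads, with a mean of 5.09 ± 0.297. The values of Car2 and Car4 overlapped, and their order differed between the libraries.

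Of the remaining members none reached 1 TPM in both libraries by the TPM column. Car9, a membrane form known as a target of hypoxia signalling, was at 1.90 and 0.71 TPM in replicates 1 and 2, from 89 and 40 reads. Its deposited posterior mean TPM was higher, at 2.49 and 1.36. Car8 was at 0.60 and 1.15 TPM, from 77 and 149 reads, with a mean of 0.875 ± 0.389. Car9 was the higher of this pair in replicate 1 and Car8 in replicate 2, so their order is not settled. Car13 was at 0.20 and 0.19 TPM, from 15 and 14 reads. The mitochondrial form Car5b was at 0.18 and 0.14 TPM, from 20 and 16 reads. Car13 was above Car5b in both libraries of the first tables, by a ratio of means of 1.22, but below it in the second tables. In all, 4 of the 8 members reached 1 TPM in both libraries. By place, the 4 cytosolic members summed to 446 and 538 TPM, the 3 membrane members to 39.0 and 39.6 TPM, and the mitochondrial member to 0.18 and 0.14 TPM.

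**Figure D1:**
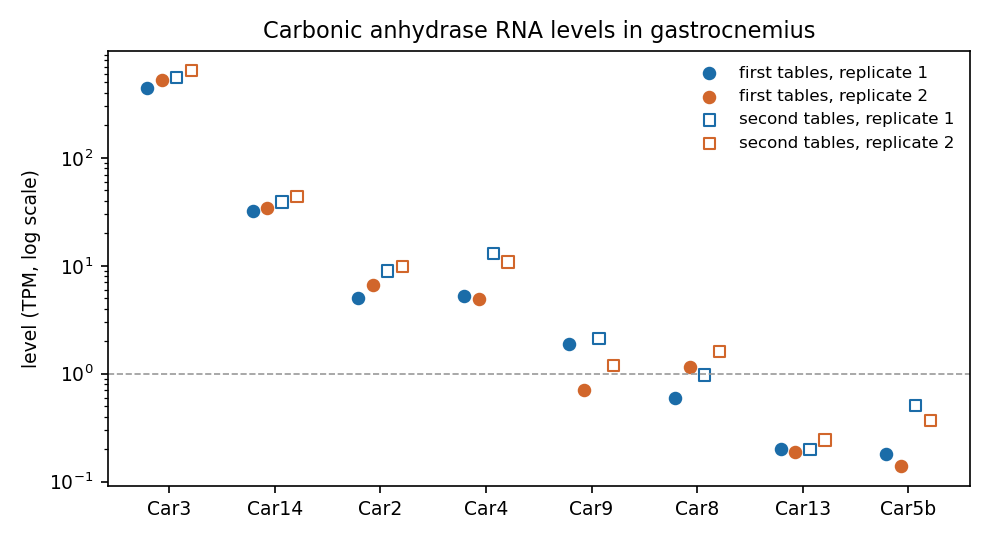
Level of each member in TPM on a log scale, with filled circles for the first tables and open squares for the second tables, blue for replicate 1 and orange for replicate 2, and a dashed line at 1 TPM. Car3 lies above 400 TPM in both libraries, Car14 above 30, Car2 and Car4 near each other, and Car13 and Car5b below 1 TPM in all tables.

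The levels differed between the kinds of table, and the cause was not tested. The second tables hold estimated counts per transcript and were summed to genes. There Car3 was at 556 and 643 TPM in replicates 1 and 2, and Car14 at 38.8 and 43.8 TPM. Car4 was at 12.9 and 10.8 TPM, above Car2 at 8.96 and 9.81 TPM in both libraries. The mean of the second tables over the mean of the first was 1.24 for Car3, 1.26 for Car14, 1.60 for Car2, 2.33 for Car4 and 2.74 for Car5b. Car8 and Car13, with 1 transcript each, stood at 1.47 and 1.13, and Car9 at 1.27. The fold between Car3 and Car14 hardly moved, at 14.7 by the means of the first tables and 14.5 by those of the second. Car8 was at 0.970 and 1.60 TPM, Car9 at 2.12 and 1.19, Car13 at 0.199 and 0.244, and Car5b at 0.506 and 0.370 TPM.

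Transcript shares also parted between the kinds of table for some genes. GENCODE M21 lists 27 transcripts for the 8 genes, and Car8 and Car13 have 1 each. Car3 was nearly all the full coding transcript Car3-201 (1679 bases, 7 exons), with 98.9% of its TPM in replicate 1 and 98.8% in replicate 2 of the first tables, and 99.6% and 99.8% in the second. Car14-201 held 68.0% and 72.2% of the TPM of Car14, and the shorter coding transcript Car14-203 held 24.0% and 19.0%. The retained-intron transcript Car14-204 held 7.92% and 7.89%, and Car14-202 was at 0 in replicate 1 and 12.9% in replicate 2 of the second tables against 0.883% in the first. Car2-201 held 66.1% and 72.6% of Car2, and the rest was Car2-202, a coding transcript of 587 bases. Car4 parted most. Car4-201 held 87.7% and 85.9% in the first tables but 40.8% and 49.2% in the second, where Car4-206, annotated as a target of nonsense-mediated decay, held 37.5% and 36.6% and was at 0 in both libraries of the first. Car4-202 held 10.6% and 8.81% in the first tables, and Car4-205 at most 5.0%, in replicate 2 of the second.

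For low members a few reads set the shares. Car9-201 held 65.8% of Car9 in replicate 1 and 83.1% in replicate 2. The rest of Car9 in replicate 1 was Car9-203, a noncoding transcript of 374 bases with 6.12 expected counts, which because of its length made 0.65 of the 1.90 TPM. In replicate 2 it was Car9-207, with 1.24 expected counts. The second tables put all of Car9 in replicate 1 on Car9-201, and 18.3% of it in replicate 2 on Car9-205, from 1 read. Car5b-201 held 88.9% and 100% in the first tables and 70.8% and 60.4% in the second, the rest being the retained-intron transcript Car5b-202. Differences between the libraries are therefore given on gene counts, not on TPM.

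**Figure D2:**
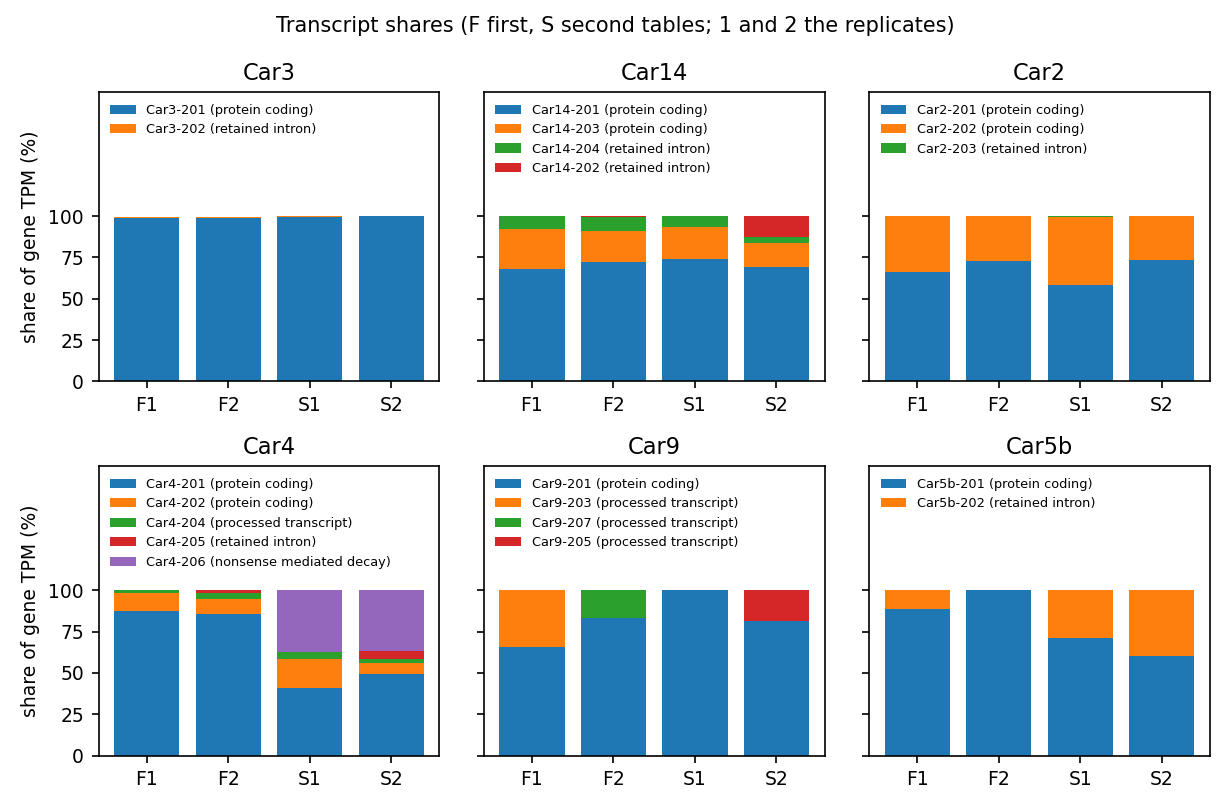
Stacked bars of the share of each gene's TPM held by its transcripts, in percent, for the 6 members with more than 1 transcript, in the first tables (F1 and F2 for replicates 1 and 2) and the second tables (S1 and S2). Car3 is almost all Car3-201 in every bar, and Car4 changes from mostly Car4-201 in the first tables to 37.5% and 36.6% Car4-206 in the second.

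Of the genes compared, 4 carbonic anhydrases lie together on chromosome 3 of mm10. Car13 (14641727 to 14663002, plus strand), Car1 (14766216 to 14808368, minus strand), Car3 (14863512 to 14872523, plus strand) and Car2 (14886273 to 14900770, plus strand) follow each other within 259 kb. Car3 and Car2 are 13.7 kb apart and on the same strand. Car1, a red cell form and not one of the 8 members, had 3 reads in each library (0.08 and 0.11 TPM). Neither Car13 nor Car1 reached 1 TPM, beside Car3 at a mean of 485 TPM. Car14 (95897768 to 95904691, minus strand) is further along the same chromosome. Car8 (8143362 to 8239041, minus strand) and Car9 (43506966 to 43513729, plus strand) are on chromosome 4, Car4 (84957786 to 84966044, plus strand) on chromosome 11 and Car5b (163976822 to 164027997, minus strand) on chromosome X. Exons of Car9 share 214 bases with Gm12454, an antisense gene that had 1 read in replicate 1 and 3 in replicate 2.

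**Figure D3:**
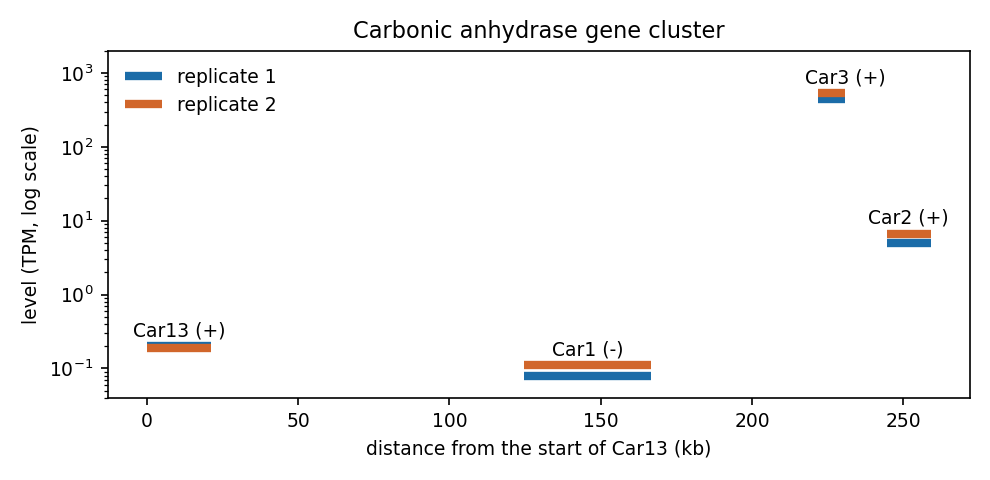
The 4 carbonic anhydrase genes of the chromosome 3 cluster, each drawn from its start to its end in kb from the start of Car13 (strand in brackets), at its TPM in replicate 1 (blue) and replicate 2 (orange) on a log scale. Car3 stands at 439.9 and 530.3 TPM between Car1, at 0.08 and 0.11, and Car2, at 5.01 and 6.69.

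The libraries differed for some members by more than counting error, in both directions. The libraries held 42724520 (replicate 1) and 42280091 (replicate 2) expected counts over genes. Ratios put replicate 2 over replicate 1, after TMM scaling of the counts, and each was tested by an exact two-sided binomial test. Benjamini-Hochberg adjustment covered the 14827 genes whose counts summed to 20 or more. All 8 members had that many. The test compares these 2 libraries and no condition, and its intervals at 95% cover counting error only. Genes are called here where adjusted p is below 0.05 and the fold is 1.5 or more. Of the 8 members 2 were called, against 6.94% of all genes tested. They went opposite ways, 1 higher in replicate 2 (4.19% of all genes) and 1 higher in replicate 1 (2.75%). By adjusted p alone, 5 members passed, 4 of them higher in replicate 2 and 1 higher in replicate 1, beside 26.2% of all genes, 14.4% and 11.7% in these directions. The median log2 ratio of the 8 members was 0.06, and that of all genes tested was 0.0013.

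Car8 and Car9 were the members called. Car8 had 77 reads in replicate 1 and 149 in replicate 2, a log2 ratio of 1.00 (95% interval 0.59 to 1.42) with adjusted p = 4.67e-06 by the exact test. The deposited intervals of its TPM, whose level is not stated, were 0.464 to 0.726 and 0.962 to 1.33 and did not overlap. Car9 had 89 and 40 reads, a log2 ratio of -1.10 (-1.68 to -0.55) with adjusted p = 0.000311 by the exact test. Its deposited intervals, 1.72 to 3.34 and 0.796 to 2.00 TPM, overlapped, and the TPM of 0.71 lay below the second of them. In the second tables Car8 had 96.4 and 165 estimated counts and Car9 101 and 49, and both were called there in the same directions.

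The other members that passed on adjusted p had smaller folds. Car3 was 1.25-fold higher in replicate 2, a log2 ratio of 0.32 (0.29 to 0.34), with adjusted p = 1.92e-138 by the exact test. Car2 was 1.46-fold higher in replicate 2, at 0.55 (0.30 to 0.81) with adjusted p = 0.000112 by the exact test. Car14 was 1.13-fold higher in replicate 2, at 0.18 (0.07 to 0.28) with adjusted p = 0.00395 by the exact test. Car4 had a log2 ratio of -0.10 (-0.40 to 0.20), Car5b -0.26 (-1.32 to 0.75) and Car13 -0.05 (-1.21 to 1.10). At this depth the interval of Car13 includes a 2-fold difference either way, and that of Car5b a 2-fold higher level in replicate 1. The SD of the log2 ratio over the 10054 genes whose counts summed to 200 or more was 0.338, and Car3 and Car14 lay within it.

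**Figure D4:**
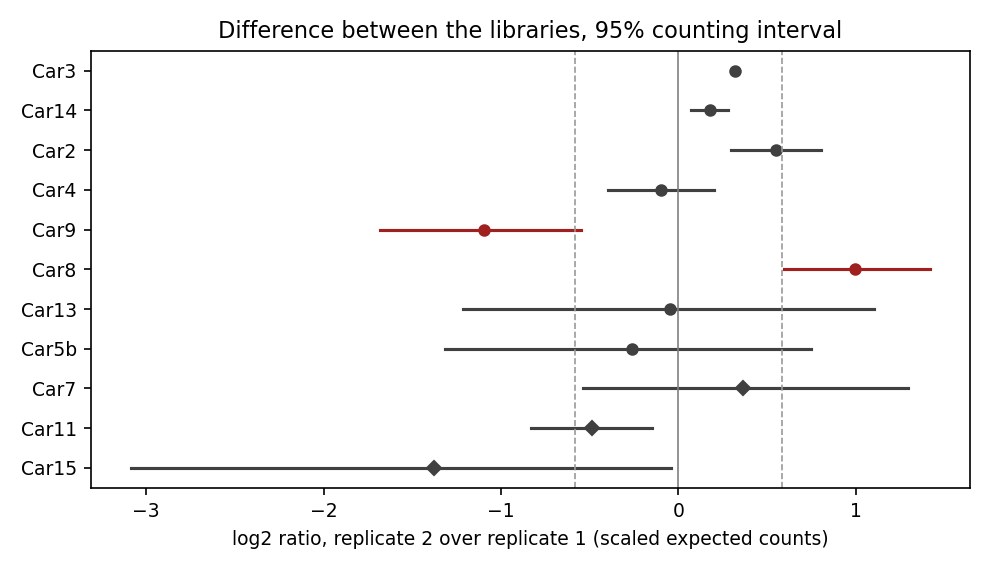
Log2 ratio of replicate 2 over replicate 1 with its 95% counting interval for the 8 members (circles) and the 3 other family genes with enough reads (diamonds), with dashed lines at 1.5-fold and red for genes called. Car8 lies at 1.00 and Car9 at -1.10, Car3 has the narrowest interval, and those of Car13, Car5b and Car15 are wide.

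Markers of fibre type and of other cells moved between the same libraries, and their part in the ratios of the carbonic anhydrases was not tested. All 10 slow-fibre genes were called, each higher in replicate 2 (4.19% of all genes), and their median log2 ratio was 1.36. Their TPM summed to 1425 in replicate 1 and 3583 in replicate 2. Myh7, the slow myosin heavy chain, went from 204 to 529 TPM, so that the TPM of Car3 was 2.16 times that of Myh7 in replicate 1 and 1.00 times in replicate 2. The 10 fast-fibre genes all passed on adjusted p, higher in replicate 1 (11.7% of all genes), with a median of -0.31. None reached 1.5-fold, and they summed to 78126 and 61175 TPM. The log2 ratio of Car3, 0.32, lay between the medians of the slow and the fast genes, as did the median of all genes tested, 0.0013. The labelled tissue matched its markers, with all 8 muscle identity genes above 1 TPM in both libraries. They summed to 79963 and 64861 TPM. By adjusted p, 7 of 8 were higher in replicate 1, against 11.7% of all genes. Among these, Tnnt3, Myh4 and Mylpf are also on the fast-fibre list, so the lists are not independent.

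Car2, Car3 and Car4 are also known from other cell types. The 8 endothelial genes, where Car4 is known, summed to 79.7 and 80.5 TPM, with a median of 0.21. By adjusted p, 5 were higher in replicate 2 (14.4% of all genes) and 1 in replicate 1 (11.7%). For red cells, where Car2 and Car1 are known, 7 of 8 marker genes were found. They summed to 237 and 216 TPM, nearly all RNA of globin genes, which share reads among near-identical copies, with a median of -0.10. Adipocytes are known to hold much Car3. Their 8 marker genes summed to 66.7 and 75.4 TPM, higher in replicate 2, although the median log2 ratio of the 6 tested was -0.84, lower in replicate 2. Fabp4, which endothelium also expresses, made most of that sum, at 55.0 and 65.8 TPM. Lipe was at 5.27 and 6.23 TPM and Cfd at 5.06 and 2.74 TPM, Adipoq at 0.34 and 0.22 TPM and Plin1 at 0.26 and 0.18 TPM. By adjusted p, 2 of the list (Fabp4 and Lipe) were higher in replicate 2 (14.4% of all genes). Cfd alone was higher in replicate 1 (11.7% of all genes), and it was called (2.75%). The 6 Schwann cell genes summed to 24.0 and 19.2 TPM, with a median of -0.09 and none past the test (26.2% of all genes). The 7 fibro-adipogenic genes summed to 477 and 336 TPM, with 4 called higher in replicate 1 (2.75% of all genes) and 1 in replicate 2 (4.19%), and a median of -0.78.

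Among the other family genes Car11, a secreted form without catalytic activity, had the highest level. It was at 6.41 and 4.11 TPM in replicates 1 and 2, from 180 and 124 reads, with a log2 ratio of -0.49 (-0.83 to -0.15) and adjusted p = 0.0186 by the exact test and 0.0597 in the second tables, where it did not pass. Its level lay above that of Car4 in replicate 1 and below it in replicate 2. Car7 was at 0.39 and 0.49 TPM and Car15 at 0.51 and 0.17 TPM, and neither passed the test. Car1, Car6, Car10 and Car12 had at most 3 reads in a library of the first tables. Car5a, the mitochondrial form known from liver, had 0 reads in both of these, which allows up to 3 reads in each library. The second tables gave Car5a 5.03 and 4.03 estimated counts, and Car10 3.12 and 5.05. Of the 8 other family genes 3 had enough reads to test. On adjusted p 1 passed (26.2% of all genes), and 0 were called at 1.5-fold (6.94%). At an unadjusted p under 0.05, 2 of them passed, Car11 and Car15. The 8 members held 98.5% and 99.2% of the summed TPM of the 16 family genes.

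Transporters move what carbonic anhydrases make or use. Of 20 genes for transport of bicarbonate, protons, lactate and water, 15 reached 1 TPM in both libraries, and together they summed to 614 and 563 TPM. Bsg, the chaperone of the lactate carriers, led at 255 and 236 TPM in replicates 1 and 2. Slc16a3, the lactate and proton exporter of glycolytic fibres, was at 188 and 138 TPM, and Aqp1, a water channel of endothelium and red cells, at 98.4 and 105.9 TPM. Of 18 genes tested 9 passed on adjusted p (26.2% of all genes), 6 higher in replicate 2 (14.4%) and 3 in replicate 1 (11.7%). At 1.5-fold 3 were called, against 6.94% of all genes, and the median log2 ratio was 0.07. Slc16a1, the lactate carrier of oxidative fibres, went from 8.19 to 13.0 TPM, a log2 ratio of 0.72, and the anion exchanger gene Slc4a3 from 2.84 to 5.61 TPM, a log2 ratio of 0.82. Slc4a10, a sodium and bicarbonate carrier known from neurons, had 40 reads in replicate 1 and 7 in replicate 2, a log2 ratio of -2.38.

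Car9 is known in many tissues as a target of hypoxia-inducible factor, so genes of that response were set beside it. All 13 were tested, 11 of them at 1 TPM or more in both libraries, with a median log2 ratio of 0.21. By adjusted p 6 were higher in replicate 2 and 3 in replicate 1, against 14.4% and 11.7% of all genes. Of the list 3 were called at 1.5-fold, against 6.94% of all genes. Egln3, an oxygen-sensing prolyl hydroxylase, was higher in replicate 2 (10.9 and 20.8 TPM), and Pfkfb3, a regulator of glycolysis (118 and 65.4 TPM), and Ankrd37 (2.45 and 0.69 TPM) were higher in replicate 1, the direction of Car9. Bnip3 at 106 and 142 TPM and Hk2 at 95.2 and 119 TPM were among the 3 most abundant of the list. The genes of this list went both ways, and Car9 was lower in replicate 2. The cause of the Car9 difference was not tested. The bases just before the start of Car9 in RefSeq (build GRCm38.p6, plus strand, chr4:43506996-43507025) are shown because they hold the core letters of a hypoxia response element.
Car9: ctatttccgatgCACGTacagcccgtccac
Capitals mark the 1 match to ACGTG in the 300 bases around that start, read on the minus strand and ending 14 bases before the start. The stretch lies after the start of Car9 in GENCODE M21. ACGTG was searched on both strands, where it can overlap itself as CACGTG, and 19.6% of 32851 RefSeq promoter windows of the same length hold it. Of the 8 members, 4 have an entry in that table.

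**Figure D5:**
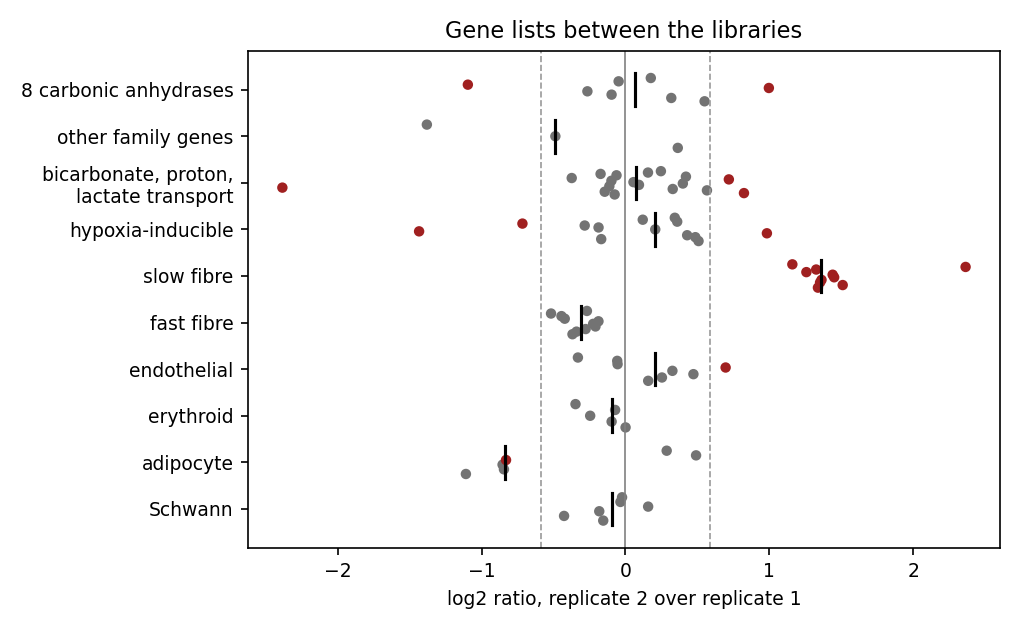
Log2 ratio of replicate 2 over replicate 1 for each tested gene of 10 gene lists (points, red where called), with the list median as a black bar and dashed lines at 1.5-fold. The 8 carbonic anhydrases spread on both sides of 0 with a median of 0.06, the slow-fibre genes lie to the right with a median of 1.36 and the fast-fibre genes to the left with a median of -0.31.

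The protein-coding genes most like the 3 most abundant members were taken as those nearest in the plane of log2 mean TPM and log2 ratio, among 12678 genes and over only 2 libraries. For Car3 they included Cox5b (452 and 536 TPM, distance 0.033), a subunit of cytochrome c oxidase, and Slc25a3 (423 and 517 TPM, distance 0.048), the mitochondrial phosphate carrier. For Car14 they were Hspa4 (31.4 and 34.6 TPM), St13 (34.0 and 32.5 TPM) and Mrpl37 (31.7 and 34.0 TPM). For Car2 they were Hist1h4k (4.72 and 6.90 TPM), Wipf3 (4.43 and 7.49 TPM) and Acot7 (4.97 and 6.84 TPM). With 2 libraries many genes share such a pair of values.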

How the data were processed

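Total RNA-seq of 2 gastrocnemius libraries was analysed from the deposited tables. The first tables give expected counts and TPM, per the file headers. They add the posterior mean TPM, the posterior standard deviation of the count and bounds of a TPM interval, deposited by the authors and read as scores. The second tables, as deposited, list transcripts with estimated counts and TPM, which were summed to genes here. Per the deposited notes, all use mm10 and GENCODE M21, the first from transcriptome alignments and the second from 1 file of reads. They were made with programs, versions and a strand setting not given in the sources used here. Reads of CAST alleles were assigned to a B6-type reference.

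The deposited tables also list ERCC RNAs, phiX and numeric entries, which together took 0.468% (replicate 1) and 0.442% (replicate 2) of expected counts and stayed out of totals and tests. A chi-square statistic of 71.6 per degree of freedom over 14827 genes showed that the libraries are not copies.

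Expected counts were rounded. TMM factors came from edgeR 4.0.16 and size factors from DESeq2 1.42.0 in R 4.3.3. With 1 group an edgeR quasi-likelihood fit has no contrast, so the exact conditional binomial test of scipy 1.17.1 was used, with 0.5 added to counts for ratios. It was tested on simulated data that held counting error only, and so not on the wider spread of these libraries. A count of 0 allows 3 reads. Intervals are exact Clopper-Pearson intervals and cover counting error only.

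The members and the 12 gene lists, 114 entries, were chosen with earlier results of these data known. Named genes are the members, the other family genes, the 3 most abundant and the called genes drawn from a list, the nearest genes, and transcripts with at least 5% of a member's TPM. Codons were aligned through the translated coding sequences of GENCODE M21. Adipoq, Plin1, Gm12454 and Aph1a fall outside that rule and were named after their values were seen. Some items that these rules name are not reported here.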

Additional observations from a re-analysis of the deposited data

How the results depend on the processing

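No paired analysis was possible because the series holds 1 group. With 2 libraries, leaving out 1 in turn only returns the value of the other, so it is no further check. These values were 485 and 578 TPM for the summed level of the 8 members. For the share of Car3 they were 90.7% and 91.7%. The summed level was 666 TPM in the second tables and 1139 TPM when TPM was rescaled to protein-coding genes. The share of Car3 was 90.03% in the second tables. At 1 TPM in both libraries stood 5 members in the second tables and 5 by posterior mean TPM, an alternative chosen after seeing the data, which adds Car9, and 6 stood at a level of 0.5 TPM. The count of members called stayed at 2 (Car8 and Car9) with total counts, DESeq2 size factors, no filter, 2 added to each count and the second tables. Scaling to ERCC RNAs added Car2, at a log2 ratio of 0.60, and gave 3. At a summed count of at least 200, Car9 was not tested, 1 member was called, and 544 genes were called in all against 1029. Across the other alternatives, 1019 to 1077 genes were called. The log2 ratio of Car13 changed sign with ERCC scaling (0.0038) and in the second tables (0.41), and it did not pass the test in either. The other 68 recomputed ratios of family genes kept direction and their side of the 1.5-fold call. By adjusted p alone Car11 no longer passed in the second tables (0.0597). Depth limits Car13 and Car5b, each under 50 reads in the 2 libraries together.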
